A study of Mus musculus with 2 samples.

Results

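Ephrin, semaphorin and plexin guidance genes were described in resting T cells of both main lineages, naive CD4 (helper) and naive CD8 (cytotoxic). The set held 10 genes taken by symbol, Ephb6, Efnb1, Efnb2, Efna1, Sema4a, Sema4b, Sema4d, Sema4f, Plxnd1 and Nrp1, and all 10 were found among the 23167 gene symbols of the libraries. They were selected on family membership with their RPKM in these same 2 libraries known, so the values below are a description. Both libraries came from Foxp3-GFP mice, which carry a green fluorescent reporter of regulatory T cells, on a C57/BL6 background. Naive CD4 cells made up the first group and naive CD8 cells the second, each sorted from spleen and lymph nodes with high CD62L, low CD44, no CD25 and no Foxp3-GFP signal. The ages, sexes and number of mice were not given in the sources used here. Total RNA was depleted of ribosomal RNA and sequenced as 1 library per group, so differences have no replicate check and no p-values are printed. The series was about 5-hydroxymethylcytosine, an oxidised form of methylated cytosine, in T cell development.

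Guidance molecules are cell surface and secreted proteins first known for steering axons and blood vessels, and many are used by immune cells for contact and movement. Ephrins are membrane-bound ligands of the Eph receptor tyrosine kinases, and signals run into both the receptor-bearing and the ephrin-bearing cell. Semaphorins bind plexins, whose cytoplasmic part acts on small GTPases of the cytoskeleton and of integrin adhesion, often together with neuropilin coreceptors. In T cells Ephb6, ephrin-B proteins and class 4 semaphorins take part in costimulation and in contacts with antigen-presenting cells and B cells.

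Values are RPKM, reads scaled to gene length and library total, which allow levels of different genes to be set side by side per length. The library totals behind them, recovered from the values, were 24741945 reads for CD4 and 23853921 for CD8, and 1 RPKM stood for between 80.5 reads (Efnb1) and 170 reads (Plxnd1) of the members in the CD4 library. The sorted identities showed in the libraries. Cd4 was at 305 RPKM in CD4, compared with 8.89 in CD8, Zbtb7b, the helper lineage factor, at 51.8 and 1.25, Cd40lg, the CD40 ligand, at 31.9 and 0.943, Cd8a at 2.50 and 518, and Cd8b1 at 21.4 and 788. All 6 general T cell markers were above 1 RPKM in both. Markers of other cells moved unevenly: the 5 B cell markers summed to 3.45 RPKM in CD4 and 30.0 in CD8, the 6 markers of activated or memory T cells to 17.4 and 245, and the 4 NK cell markers to 7.99 and 107, while the myeloid, conventional dendritic cell, platelet and erythroid lists each summed to less than 3.5 RPKM in both.

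Among the 53 Eph receptor, ephrin, semaphorin, plexin and neuropilin genes, transcripts came from few members of each family. There were 18 genes listed at 0 in both libraries, 24 with reads but under 1 RPKM in both, and 11 at 1 RPKM or more in at least 1 library. Ephb6 alone gave 99.5% of the summed RPKM of 14 Eph receptor genes in CD4 and 98.2% in CD8. Sema4a, Sema4b, Sema4d and Sema4f together gave 98.4% and 97.2% of the sum of 20 semaphorin genes. The class 4 semaphorins were thus the most abundant family, at 75.3 RPKM in all semaphorins in CD4 and 83.4 in CD8. The 8 ephrin genes summed to only 1.72 and 0.999 RPKM. The sums are of transcripts in bulk samples, where fewer cells carrying a transcript and less RNA per cell cannot be told apart.

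**Figure D1:**
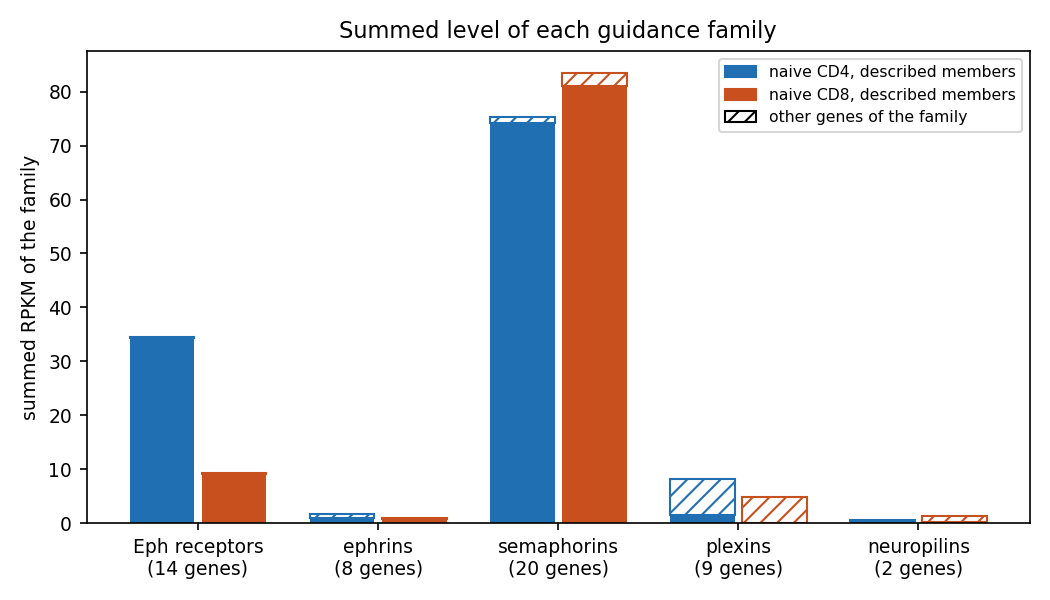
Summed RPKM (linear axis) of the Eph receptor, ephrin, semaphorin, plexin and neuropilin genes in the naive CD4 (blue) and naive CD8 (orange) library, with the described members filled and the other genes of each family hatched. Semaphorins are the tallest bars, at 75.3 and 83.4 RPKM, and Eph receptors stand at 34.5 (CD4) and 9.21 RPKM (CD8).

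Of the members at 1 RPKM or more in a library Ephb6 and Plxnd1 differed most between the libraries, and the 4 class 4 semaphorins were close to equal. The promoters of Ephb6 and Plxnd1 are therefore shown beside that of Sema4d, as the 250 bases before the first listed start of each gene, from RefSeq on build GRCm38.p6, with CpG dinucleotides, where cytosine can be methylated and hydroxymethylated, in capitals.
Ephb6 (chr6:41605261-41605510, + strand): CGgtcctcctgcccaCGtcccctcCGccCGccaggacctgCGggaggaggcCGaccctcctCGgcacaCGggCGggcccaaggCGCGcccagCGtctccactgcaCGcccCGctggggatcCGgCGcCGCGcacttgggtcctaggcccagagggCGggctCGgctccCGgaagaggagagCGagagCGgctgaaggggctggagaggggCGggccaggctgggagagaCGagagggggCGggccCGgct
Plxnd1 (chr6:115995006-115995255, - strand): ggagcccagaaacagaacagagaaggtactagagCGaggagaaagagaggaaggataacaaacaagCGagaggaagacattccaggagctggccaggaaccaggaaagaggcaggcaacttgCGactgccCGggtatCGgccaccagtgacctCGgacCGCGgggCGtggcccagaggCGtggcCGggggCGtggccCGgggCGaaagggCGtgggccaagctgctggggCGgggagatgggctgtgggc
Sema4d (chr13:51748811-51749060, - strand): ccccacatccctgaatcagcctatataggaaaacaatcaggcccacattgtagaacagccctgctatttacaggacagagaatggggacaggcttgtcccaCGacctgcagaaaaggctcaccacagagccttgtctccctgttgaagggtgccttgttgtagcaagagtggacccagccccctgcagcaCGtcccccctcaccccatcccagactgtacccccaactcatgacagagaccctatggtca

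The Ephb6 window held 27 CpGs at a GC content of 76.8% and the Plxnd1 window 16 at 64.8%, against a median of 6 over 32851 RefSeq promoter windows of the same length. The Sema4d window held 2. CpG content did not follow the level of the members: Efnb2, listed at 0 in CD4, also had 27 CpGs. Sema4f, at 7.55 RPKM in CD4 and 8.31 in CD8, had 4 in its window. Sema4a, at 18.6 and 22.0 RPKM, had between 2 and 13 in the windows of its 4 listed starts. The Sema4b windows held 20 and 23. All 10 members matched the table, with 17 listed starts, and which of them these cells used is not known from values per gene. Of short motifs searched on both strands, allowing overlaps, the GC box letters GGGCGG were in 12 of the 17 windows and 32.7% of all windows, with 5 matches in that of Ephb6. The RUNX letters TGTGGT were in 1 of the 17, the Sema4d window shown, and 14.0% of all windows. The ETS letters CCGGAAG were in the Ephb6 window alone of the 17 and in 6.91% of all, the TATA letters TATAAA in the Efnb2 window alone and in 12.4% of all, and the TCF/LEF letters CTTTGAT in 0 of the 17 and 3.21% of all. The 5 motifs do not contain each other, and a match describes letters, not a site.

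Ephb6 encodes an Eph receptor whose kinase domain lacks catalytic activity and which is known in T cells as a modulator of receptor signalling. It was at 34.3 RPKM in CD4 (3179 reads, 95% counting interval 33.2 to 35.6) and 9.04 RPKM in CD8 (807 reads, 8.43 to 9.69). Ephb6 was the highest of the 10 members in CD4, above 77.9% of the 10228 genes that were at 1 RPKM or more in a library, and in CD8 it was above 38.0% of them. The ratio of the deposited values was 3.80, with an exact (Clopper-Pearson) 95% interval of 3.51 to 4.11 from the split of its reads. Intervals here cover counting error only and compare 2 libraries, not the cell types. On the scale of log2((CD4 RPKM + 1)/(CD8 RPKM + 1)), where the pseudocount of 1 shrinks differences between small values, the difference was 1.82, and 59 of the 10228 compared genes lay at least as far toward CD4. It lay between 1.73 and 2.07 under 3 other scalings of the libraries.

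**Figure D2:**
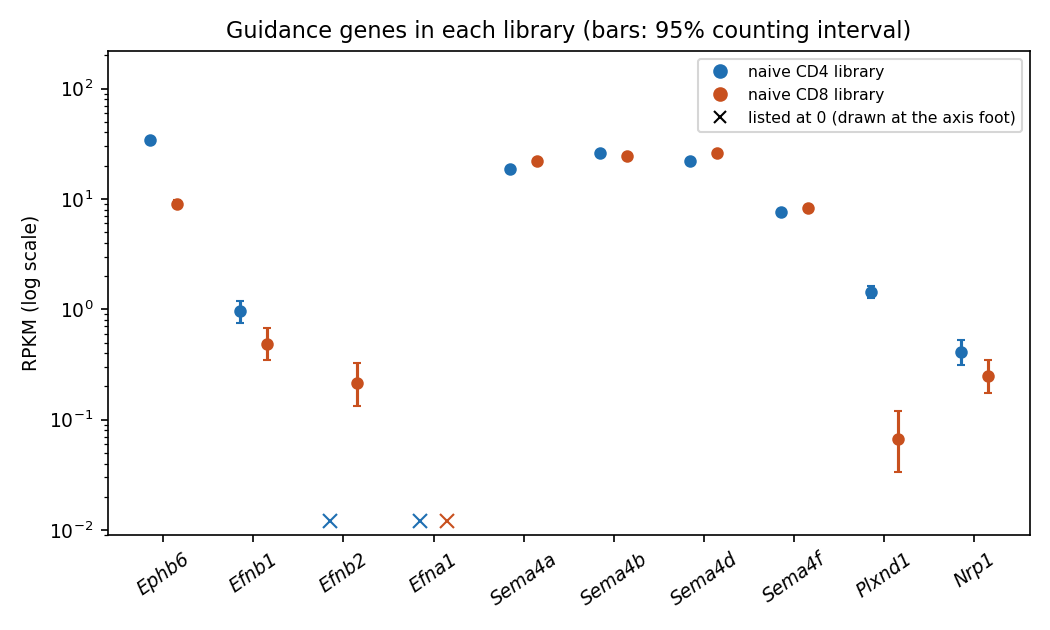
RPKM (log axis) of the 10 members in the naive CD4 (blue) and naive CD8 (orange) library, with 95% counting intervals as bars and crosses at the foot of the axis for values listed at 0. Ephb6 and Plxnd1 are apart between the libraries, the Sema4 pairs lie close together between 7.55 and 26.2 RPKM, and the ephrins and Nrp1 lie under 1 RPKM.

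The other Eph receptor genes had few or no reads. Ephb2, a kinase-active receptor for ephrin-B ligands, had 15 reads in the CD4 library against 7 in the CD8 library, Epha4 had 4 against 5, and Epha1 had 0 against 5, or fewer if its length was taken at a smaller multiple. There were 7 Eph receptor genes listed at 0 in both libraries. Set against a semaphorin of the same library, which removes the scaling of the libraries, Ephb6 was at 1.32 times the Sema4b level in CD4 and at 0.367 times in CD8. These 2 ratios differed 3.60-fold (95% counting interval, Woolf, 3.27 to 3.96).

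No ephrin member reached 1 RPKM in either library. Efnb1, a transmembrane ephrin-B ligand of EphB receptors, was at 0.957 RPKM in CD4 (77 reads, interval 0.755 to 1.20) and 0.490 in CD8 (38 reads, 0.347 to 0.672). Its ratio was 1.95 toward CD4 (1.31 to 2.96), at a CD4 level above only 3.0% of the compared genes. Efnb2, the other ephrin-B member, was listed at 0 in CD4, where 3 reads would stand for 0.0281 RPKM, and was at 0.214 RPKM in CD8. With the gene length nearest to an annotated one that value stands for 22 reads, at least 7.61-fold higher in CD8 against a floor of 3 reads in CD4 if the listed 0 stands for 0 reads. The smallest length that gives whole reads makes it 11 reads and, on the same condition, at least 3.80-fold. Efna1, a lipid-anchored ligand of EphA receptors, was listed at 0 in both libraries, and since a listed 0 can be a failed estimate it is not read as low expression.

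Endothelial cells express Efnb2, Plxnd1 and Nrp1, so their markers are given beside these genes. Of 5 endothelial markers Tek and Emcn were listed at 0, Cdh5 was at 0.183 RPKM in CD4, compared with 0.0527 in CD8, and Kdr had 6 reads in CD4 against 0 in CD8. Nearly all of the list's sum of 105 RPKM in CD4 and 52.4 in CD8 was Pecam1, at 105 and 52.4, a gene that naive T cells also express. Cdh5 and Kdr went with Plxnd1 toward CD4 and against Efnb2, at far lower levels than Plxnd1 in CD4, and their part in these values was not tested.

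Outside the described members, the ephrin genes named by list rank were below Efnb1 in both libraries. Efna4 had 24 reads in CD4 against 2 in CD8, a ratio of 11.6 whose interval ran from 2.87 to 101. Its reads, like those of Efnb3, would be fewer and the interval wider if its length was taken at a smaller multiple. Efna2 had 4 and 11 reads and Efnb3 6 and 2, with intervals of the ratio that held 1.

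Among the 4 class 4 semaphorins, transmembrane proteins with an extracellular sema domain, levels were similar in the 2 libraries. Sema4d encodes CD100, which is shed from or displayed on T cells and binds CD72 on B cells and plexin-B1. It was at 22.0 RPKM in CD4 (2370 reads) and 26.2 in CD8 (2721 reads), 1.19-fold higher in CD8 (1.13 to 1.26). Sema4a, which has been linked to T cell priming and binds Tim-2, plexins and Nrp1, was at 18.6 RPKM in CD4 (1577 reads) and 22.0 in CD8 (1798 reads), 1.18-fold higher in CD8 (1.10 to 1.27). Both kept that direction under the 3 other scalings, but at a log2 difference as small as -0.04 for Sema4d and -0.03 for Sema4a when each library was rescaled to a sum of 1000000.

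Sema4b was at 26.0 RPKM in CD4 (2532 reads) and 24.7 in CD8 (2313 reads), a ratio of 1.06 with an interval of 0.997 to 1.12 that held 1, and it was on the CD8 side after centring on the median gene (-0.01). Sema4f, the lowest of the 4, was at 7.55 RPKM in CD4 (934 reads) and 8.31 in CD8 (991 reads), 1.10-fold higher in CD8 (1.01 to 1.20), and it was on the CD4 side after rescaling to a sum of 1000000 (0.07). The order of levels in CD4 was Sema4b, Sema4d, Sema4a and Sema4f, with counting intervals that did not overlap. In CD8 Sema4d (25.2 to 27.2 RPKM) and Sema4b (23.7 to 25.7) had overlapping intervals, followed by Sema4a (21.0 to 23.0) and Sema4f (7.80 to 8.84).

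The balance within the class differed little between the libraries. The Sema4d level was 0.844 times that of Sema4b in CD4 and 1.06 times in CD8, a 1.26-fold difference of ratios (1.16 to 1.36) that does not depend on library scaling. For Sema4a against Sema4b it was 0.714 and 0.891 (1.25-fold, 1.14 to 1.36), and for Sema4f 0.290 and 0.337 (1.16-fold, 1.05 to 1.29). In CD8 the Ephb6 interval of 8.43 to 9.69 RPKM overlapped that of Sema4f, whereas in CD4 Ephb6 stood above every semaphorin.

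**Figure D3:**
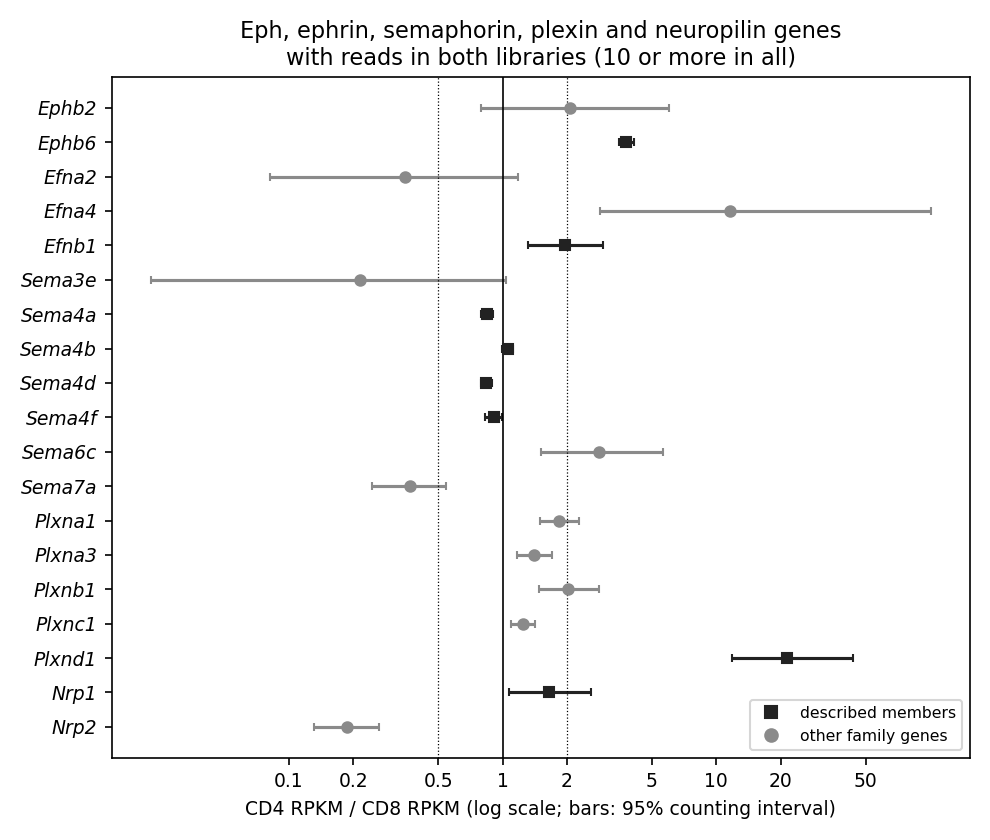
Ratio of CD4 to CD8 RPKM (log axis) with 95% counting intervals for the 19 family genes with reads in both libraries and 10 or more in all, with described members as black squares and other genes as grey circles. Dotted lines mark 2-fold. The Sema4 members lie beside 1, Ephb6 at 3.80, Plxnd1 at 21.6 and Nrp2 on the CD8 side.

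The other semaphorin genes were near or under 1 RPKM. Sema7a, a lipid-anchored semaphorin that binds plexin-C1 and integrins with the beta-1 chain, was at 0.459 RPKM in CD4 (37 reads) and 1.25 in CD8 (97 reads), 2.72-fold higher in CD8 (1.84 to 4.09). Sema4g was listed at 0 in CD4 and had 65 reads in CD8 (0.635 RPKM), at least 22.5-fold higher against the floor of 3 reads if the listed 0 stands for 0 reads. Sema6c had 41 reads in CD4 against 14 in CD8, a ratio of 2.82 (1.51 to 5.61). With the pseudocount of 1 RPKM none of these 3 reached a log2 difference of 1.

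Plxnd1 encodes plexin-D1, a receptor for Sema3e that guides vessel growth and the movement of thymocytes to the thymic medulla. It was at 1.45 RPKM in CD4 (246 reads, 1.27 to 1.64) and 0.0671 RPKM in CD8 (11 reads, 0.0335 to 0.120), so its transcript was low in CD4 and close to the limit of detection in CD8. The ratio was 21.6, with a wide interval of 11.8 to 43.8 because of the 11 reads. The log2 difference with the pseudocount was 1.20, with 169 compared genes at least as far toward CD4. It was 0.35 with a pseudocount of 5 RPKM and 4.43 without one. Plexin-D1 gave 17.7% of the summed plexin RPKM in CD4 and 1.39% in CD8.

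Plxnc1, the Sema7a receptor, was the highest plexin gene in both libraries, at 3.29 and 2.64 RPKM (1.25-fold higher in CD4, 1.10 to 1.41). Plxna3, a class A plexin that pairs with neuropilins, was at 1.67 and 1.19 RPKM (1.41-fold, 1.17 to 1.70), and Plxna1 at 1.19 and 0.643 (1.84-fold, 1.50 to 2.28). The Plxnd1 level was 0.440 times that of Plxnc1 in CD4 and 0.0255 times in CD8, a 17.3-fold difference of ratios (9.34 to 32.1). Sema3e, the ligand of plexin-D1 named here after its value was seen, had 2 reads in CD4 against 9 in CD8. Of the markers of immature thymocytes Rag2 was listed at 0, Rag1 was at 0.0606 RPKM in CD4, compared with 0.107 in CD8, and Dntt was at 5.93 and 3.66 (1.62-fold higher in CD4, 1.35 to 1.95). The part of such cells in the Plxnd1 value was not tested.

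Nrp1 encodes neuropilin-1, a coreceptor for class 3 semaphorins and for VEGF that is known on thymus-derived regulatory T cells and plasmacytoid dendritic cells. It was at 0.411 RPKM in CD4 (60 reads, 0.313 to 0.529) and 0.249 in CD8 (35 reads, 0.173 to 0.346), a ratio of 1.65 (1.07 to 2.58). The CD4 value was above 1.1% of the compared genes and the CD8 value above 0.518%. The 5 regulatory T cell markers summed to 62.7 RPKM (CD4) and 34.4 RPKM (CD8) and did not share one direction. Foxp3, the regulatory T cell factor, with 136 and 15 reads, and Folr4 were past the size rule toward CD4, the side of Nrp1. Ikzf2, at 1.07 and 5.38 RPKM, and Ctla4, at 3.82 and 8.64 RPKM, were past it toward CD8. Siglech, the defining plasmacytoid marker, was listed at 0 in both libraries, and most of that list's sum of 57.9 RPKM in CD4 and 87.6 in CD8 was Bst2, an interferon-induced gene of many cells, at 54.4 and 83.0. Of that list, Tcf4 had 99 and 32 reads (2.98-fold, 1.98 to 4.59, toward CD4 like Nrp1), and Irf8 was at 2.91 and 4.43 RPKM. The part of either cell type in the Nrp1 value was not tested.

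Nrp2, the paralog of Nrp1 and named after its value was seen, went the other way, at 0.204 RPKM in CD4 (41 reads) and 1.09 in CD8 (211 reads), 5.34-fold higher in CD8 (3.81 to 7.65). Nrp1 was at 2.01 times the Nrp2 level in CD4 and at 0.228 times in CD8, an 8.82-fold difference of ratios (5.17 to 15.1). Nrp1 thus made up 66.8% of the summed neuropilin RPKM in CD4 and 18.5% in CD8, from a sum of 0.615 and 1.34 RPKM.

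By the size rule, a log2 difference of 1 or more among genes at 1 RPKM or more in a library, 2 members were higher in CD4, Ephb6 and Plxnd1, and 0 in CD8. Over all 10228 compared genes the rule called 5.48%, with 2.41% higher in CD4 and 3.07% higher in CD8, and since the members were picked with these values known nothing is read from their count. Only 6 of the 10 members passed the filter, Ephb6, Sema4a, Sema4b, Sema4d, Sema4f and Plxnd1, and Plxnd1 passed through its CD4 value alone, which makes a difference more likely by construction. Their median log2 difference was -0.02, against 0.08 over all compared genes. The counting interval of the ratio lay on 1 side of 1 for 5 of the 6, 2 higher in CD4 and 3 higher in CD8. Over all compared genes it did so for 72.0%, with 45.0% higher in CD4 and 27.0% in CD8, so that an interval clear of 1 was usual at this depth. Of the 4 members under the filter 3 had reads, Efnb1, Efnb2 and Nrp1.

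**Figure D4:**
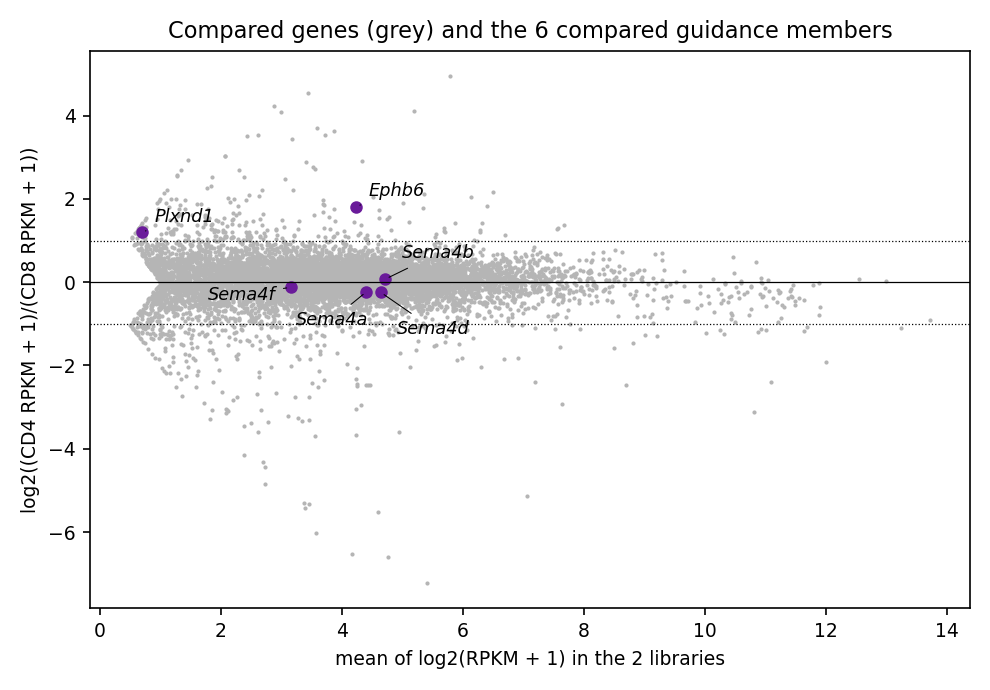
Log2 difference (CD4 over CD8, pseudocount 1 RPKM) against mean log2(RPKM + 1) for the 10228 compared genes (grey points) and the 6 compared members (purple), with dotted lines at a log2 difference of 1 and -1. Ephb6 (1.82) lies above the bulk of genes of its level, Plxnd1 (1.20) lies at the low end of the range, and the Sema4 genes lie within the bulk.

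The 4 families as a whole had 11 compared genes, 2 of them past the size rule toward CD4 and 0 toward CD8, with a median of 0.07, and both were members. The 43 family genes outside the members had 5 compared, 0 past the size rule. Of 4 listed semaphorin receptors outside the plexins, 2 were compared, with 0 past the size rule toward CD4 and 1, Cd72, toward CD8. Cd72, a B cell coreceptor that binds Sema4d, was at 7.20 RPKM in CD4 (266 reads) and 43.3 in CD8 (1543 reads), 6.02-fold higher in CD8 (5.28 to 6.88). Of the B cell markers Cd79b went the same way, at 2.14 and 28.8 RPKM, while Ms4a1 (0.394 and 0.348) and Cd79a (0.306 and 0.317) were under 1 RPKM in both and not higher in CD8 by more than their counting error. Itgb1, the integrin beta-1 chain, was at 13.5 and 22.0 RPKM (1.63-fold higher in CD8, 1.52 to 1.74), Itga1 had 2 and 10 reads, and Timd2, the Tim-2 gene, was listed at 0 in both.

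Of 23 genes of plexin and semaphorin signalling 12 were compared, 2 passed the size rule toward CD4 and 0 toward CD8, with a median of -0.05. Arhgef11, which encodes a binding partner of plexin-B receptors, was at 20.8 RPKM in CD4 against 8.05 RPKM in CD8, a ratio of 2.59 (2.41 to 2.78). Mical3, a member of the redox enzyme family that acts on actin below plexins, was at 4.76 and 1.87 RPKM (2.55-fold, 2.08 to 3.15), and its log2 difference of 1.01 was under the rule after centring on the median gene (0.93), after rescaling to the housekeeping list (0.998) and with a pseudocount of 5 RPKM (0.51). The most abundant of this list were Rap1b, a GTPase that plexins inactivate, at 139 and 179 RPKM, the kinase gene Fyn at 118 and 106, and Rac1, a GTPase of the actin cytoskeleton, at 78.9 and 94.1. Of 19 genes of Eph and ephrin signalling 16 were compared, 0 passed the size rule in either direction, and the median was 0.13. The most abundant of them were Sdcbp, a PDZ protein that binds ephrin-B tails, at 81.9 and 92.9 RPKM, the adaptor gene Crkl at 29.7 and 28.4, and Sipa1l1, a Rap GTPase-activating protein, at 33.7 and 22.9.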

How the data were processed

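The values are RPKM that the authors deposited, 1 file per library listing a symbol and its value per row. The submitters' processing notes name TopHat, HTSeq and build mm9, with versions and roles not stated. The annotation, the strand setting and how multi-mapped reads were treated are unstated in the sources used here. Each file had 26882 rows for 23167 symbols, and the 2597 symbols on several rows carried identical values and were counted once. Groups came from the cell type in the labels.

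Reads behind each RPKM were worked back to whole numbers. The most frequent ratio among low genes gave the ratio of the totals, GENCODE M21 transcript lengths set the scale, and the totals were the whole numbers at which most gene lengths came out whole. Of 12735 genes with values in both libraries, 12733 came out whole at these totals within the printed precision. A shift of the CD8 total by 1000 reads left 0 whole among 1000 genes checked. Of the possible multiples of a gene's smallest length the one nearest to an annotated length was taken, and 81.2% of genes stood at the smallest. For the others, among them Efnb2, Efna4, Efnb3, Plxna3, Rgmb and Unc5a, a smaller multiple would give fewer reads and wider intervals. Recovered reads summed to 1.05 and 1.06 times the totals, and the cause was not tested.

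With 1 library per group no test was run. Genes at 1 RPKM or more in a library were compared by log2((CD4 RPKM + 1)/(CD8 RPKM + 1)), where an absolute value of at least 1 is called 2-fold (the size rule). Folds without a pseudocount carry exact 95% intervals from the split of reads, and levels carry exact Poisson intervals. The members and lists were chosen with earlier results of these data known. Named were all members, and of the other family and partner lists each gene past the size rule and the 3 highest by mean RPKM, besides Cd4, Zbtb7b, Cd40lg, Cd8a, Cd8b1 and Foxp3. Other names are markers given beside a result or are said to be chosen after their values were seen. The value of 1 marker gene is not reported here. Genes of like pattern were not sought, since 2 libraries give a single ratio per gene. Alternatives were pseudocounts of 0.1 and 5 RPKM, a filter at 5 RPKM or none, the median gene as centre, rescaling to a sum of 1000000 and rescaling to 12 housekeeping genes. The ratio without a pseudocount or filter, with a library at 0 set to 3 reads, was chosen after seeing the data. On simulated libraries of 14350 genes both totals were found exactly, with the simulated lengths given in place of annotated ones. That was easier than in the data, where lengths could differ from the annotation, as for Ephb6 (3742 against 3762 bases). The reads of 96.2% of 13396 genes were recovered, at lengths set by the same multiple rule, so that rule was not tested. Of 10063 intervals 95.2% held the simulated fold. These were built on the simulated reads, not on recovered ones, and check the interval formula only. No coordinates of the deposited build are given, and promoter windows are RefSeq's on GRCm38.p6. Python 3.11.15, numpy 2.4.6, pandas 2.3.3, scipy 1.17.1 and matplotlib 3.10.9 were used.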

Additional observations from a re-analysis of the deposited data

How the results depend on the processing

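No paired analysis was possible because each group had 1 library, and for the same reason no replicate could be left out. Ephb6 was at least 2-fold higher in CD4 under all 8 alternatives. Members higher in CD4 numbered 1, not 2, with a pseudocount of 5 RPKM and with a filter at 5 RPKM, which leave Plxnd1 under the size rule or out of the comparison, and the 4 families likewise had 1. Without a pseudocount or filter 1 member, Efnb2, was higher in CD8. The families then had 10 genes higher in CD4 and 9 in CD8 of 35, when all genes had 1500 and 1524 of 14352. Setting a library at 0 to 3 reads reverses the direction of genes with fewer reads than that in the other library. Epha5, Ephb3 and Sema6d (1 read in CD4, 0 in CD8) thus counted toward CD8, and Ephb4 and Sema6a (0 and 1) toward CD4. No direction is read from these counts. The same setting put the median of 7 Eph receptor genes with reads at -0.37, on the other side of 0 from Ephb6. This is the value of Epha4 (4 reads in CD4, 5 in CD8), and its place in the middle rests on the reversed genes. The sign of that median is therefore not read as a direction of the family. The families had 2 genes higher in CD8 with a pseudocount of 0.1 RPKM and 2 after rescaling to a sum of 1000000. That rescaling moved the median of all compared genes from 0.08 to 0.29 and that of the compared members from -0.02 (6 members) to 0.29 (7 members), and called 600 genes higher in CD4 and 324 in CD8, against 247 and 314 as deposited. Arhgef11 fell just under the size rule with a pseudocount of 5 RPKM (0.98). Depth limits Efnb2, Nrp1 and Plxnd1 in CD8, which rest on 22, 35 and 11 reads there.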

Other observations

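Guidance families outside the ephrins and semaphorins had few or no reads in both libraries, with 1 exception. Of 18 slit, netrin and RGM family genes 8 were listed at 0 in both and 1 was at 1 RPKM or more, and it was below the size rule. This was Rgmb, a lipid-anchored coreceptor of bone morphogenetic proteins that also binds PD-L2, at 5.87 RPKM in CD4 (764 reads) and 4.54 in CD8 (570 reads), 1.29-fold higher in CD4 (95% counting interval 1.16 to 1.44). Unc5a encodes a netrin receptor and had 32 reads in CD4 against 44 in CD8, a ratio of 0.701 whose interval of 0.430 to 1.13 held 1. Ntn1 encodes netrin-1 and had 41 reads in CD4 against 9 in CD8, a ratio of 4.39 (2.10 to 10.3) at levels under 0.3 RPKM.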
